A study of Mus musculus with 6 samples.

Results

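The genes of voltage-gated and potassium channels were compared between irradiated Lgmn+/+ and Lgmn-/- mouse cortex. Members were taken by gene symbol from the table of read counts: all genes named Kcn, Scn, Cacn or Hcn after the pattern of a pore or auxiliary subunit. The rule found 136 of 51826 genes. Of these, 121 had 10 or more counts in at least 3 libraries and were tested, among 18471 genes tested in all. The remaining 15 were left out for low counts.

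The study asked how loss of Lgmn, which encodes the lysosomal cysteine protease legumain (asparagine endopeptidase), alters the brain after radiation. Male BALB/c mice of 6 to 8 weeks received a single whole-brain X-ray dose of 10 Gy, and cortex was collected on day 3. Bulk RNA was sequenced from 3 cortical samples of Lgmn+/+ mice (Lgmn+/+-IR) and 3 of Lgmn-/- mice (Lgmn-/--IR). Both groups were irradiated. Non-irradiated animals were not analysed here, and every comparison is of genotype after radiation. The knockout mice came from a cross of floxed Lgmn mice with a Cre line whose promoter is not given in the sources used here. The genes tested here were read in whole tissue, in which fewer cells of a type and less RNA per cell cannot be told apart.

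Voltage-gated sodium and calcium channels open on depolarization and carry inward current, the sodium channels driving the action potential and the calcium channels coupling it to transmitter release and dendritic signaling. Potassium channels carry outward current that sets the resting potential and repolarizes the neuron, and HCN channels carry a mixed inward current on hyperpolarization. Pore-forming alpha subunits often need auxiliary subunits, which set their trafficking and gating. In cortex most of these genes are neuronal, while a few, such as Kcnj10, are known for potassium buffering by astrocytes.

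Total counts ranged from 41874462 to 46829441 per library. Lgmn itself had 5558, 5528 and 5775 counts in Lgmn+/+-IR, against 3703, 3269 and 4109 in Lgmn-/--IR, a log2 fold change of -0.64 (SE 0.116, edgeR adjusted p = 0.0317). It was lower in each knockout library and absent from none of them, and leaving out a library gave log2 fold changes of -0.74 to -0.54 with edgeR adjusted p from 0.0305 to 0.126. The deleted exons are not given in the sources used here, and whether the remaining reads came from exons outside the deletion or from cells without Cre was not tested. The cortical tissue label was checked against marker lists. Summed CPM (library-scaled counts by the TMM method) of 5 excitatory neuron markers ran from 3772 to 4564 in Lgmn+/+-IR and from 4046 to 5297 in Lgmn-/--IR, and none of these markers was called. Oligodendrocyte markers were called lower in 5 of 6 cases (Mog, Mag, Mobp and Cnp among them), with a summed CPM of 3402 to 4124 in Lgmn+/+-IR and 2243 to 2407 in Lgmn-/--IR. Among 7 astrocyte markers Aqp4 alone was called, and it was higher. All 5 erythroid markers were called higher, with a summed CPM of 7.59 to 15.8 against 234 to 2272. Striatal markers differed mostly within the genotypes and are given with the genes that shared their order. No member of the neuron, inhibitory neuron, oligodendrocyte precursor, microglia, endothelium, mural cell, choroid plexus or striatum lists was called, and none of the markers in any list was at 0 in a library. The part of these shifts in the channel genes was not tested except where stated.

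Few channel genes differed between the genotypes. With edgeR's quasi-likelihood test and an adjusted p under 0.05 (Benjamini-Hochberg over all genes tested), 2 of 121 channel genes were called (1.65%), against 3.25% of all genes tested. Both were potassium channel genes that were higher in Lgmn-/--IR: Kcnk1 and Kcng1. Of all genes tested, 1.61% were called higher. No channel gene was called lower by edgeR, although 8 of 121 had a lower level at an unadjusted p under 0.05 and DESeq2 called 1 lower, Kcnk5 (adjusted p = 0.0448). Limma-voom and limma on both FPKM scales called none lower. At the unadjusted threshold 10 were higher, the 2 called genes among them, so that 18 of 121 (14.9%) passed in either direction, against 18.6% of all genes tested. With the study's added threshold of an absolute log2 fold change over 1, 1 channel gene remained, Kcng1 (0.826%, against 2.04% of all genes tested).

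The size of the differences was also close to that of all genes. The median log2 fold change of the 121 channel genes was 0.038, beside -0.013 for all genes tested, and became -0.005 and -0.008 in limma on log2(FPKM + 1) and log2(FPKM + 0.1). An absolute log2 fold change under 0.5 was found for 101 of 121 channel genes (83.5%) and for 80.5% of all genes. The median SE was 0.177 and 0.174. The 3 libraries of Lgmn-/--IR all lay above those of Lgmn+/+-IR for 10 of 121 channel genes (8.26%, against 12.4% of all genes) and all below for another 10 (8.26%, against 13.3%).

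**Figure D1:**
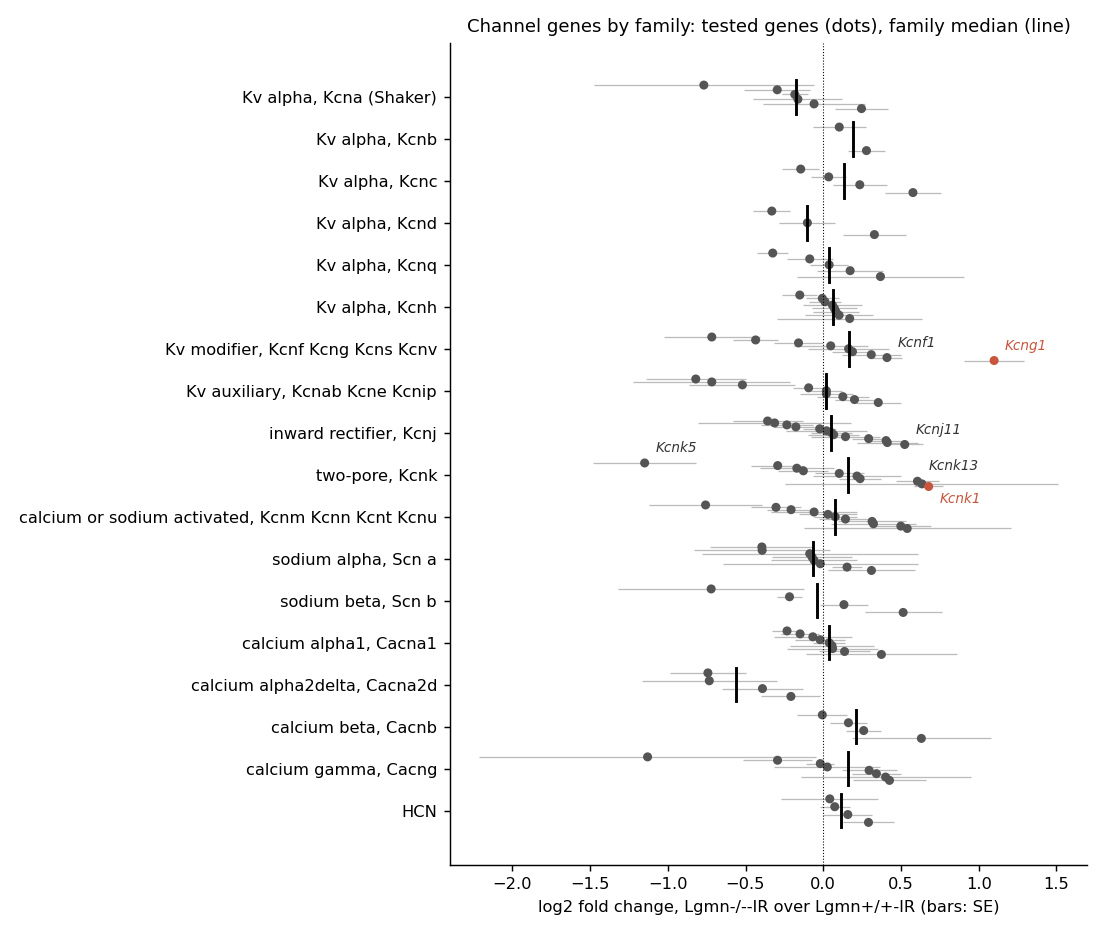
Log2 fold change (x axis, Lgmn-/--IR over Lgmn+/+-IR) of the 121 tested channel genes in 18 families (y axis). Dots are genes with SE bars, lines are family medians, and the genes called at an adjusted p under 0.05 are in red. The called genes Kcng1 (1.10) and Kcnk1 (0.68) stand at the right, Kcnk5 (-1.15, not called) at the left, and the family medians lie between -0.56 and 0.21.

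Kcnk1 encodes a weakly rectifying member of the K2P family, the background (leak) channels. Its counts were 3151, 3049 and 3311 in Lgmn+/+-IR, against 4882, 5107 and 5650 in Lgmn-/--IR. The lowest knockout library thus lay well above the highest Lgmn+/+ library. As CPM these were 72.6 ± 1.33 and 116 ± 10.9 (SD, n = 3 each), a 1.6-fold difference with a log2 fold change of 0.68 (SE 0.095, edgeR adjusted p = 0.0127). On the FPKM scale, which divides by transcript length, Kcnk1 was the most abundant K2P gene, at 30.6 ± 0.786 and 46.8 ± 2.61. The gene lies on chromosome 8 of GRCm38 from 125995170 to 126030685 (+ strand). An exon of Gm45875 on the opposite strand shares positions with it, and whether the authors counted by strand is not given in the sources used here. The call was lost without Lgmn+/+-IR replicate 2 (log2 fold change 0.66, edgeR adjusted p = 0.0781) and without Lgmn+/+-IR replicate 3 (0.68, edgeR adjusted p = 0.0597), with the size of the difference nearly as before.

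Kcng1 encodes an electrically silent Kv subunit that forms channels only together with Kcnb subunits and alters their gating. It had 995, 1249 and 1712 counts in Lgmn+/+-IR, against 2903, 2551 and 3197 in Lgmn-/--IR. The groups did not overlap, although the Lgmn+/+ libraries differed more among themselves than for Kcnk1. Its CPM was 30.1 ± 7.21 and 64.4 ± 8.98, a 2.14-fold difference, with a log2 fold change of 1.10 (SE 0.192, edgeR adjusted p = 0.0285). Kcng1 lies on chromosome 2 from 168260117 to 168281736 (- strand). Leaving out Lgmn+/+-IR replicate 1 or 2 gave log2 fold changes of 0.95 and 1.08 and edgeR adjusted p of 0.0576 and 0.122. Leaving out Lgmn-/--IR replicate 1 or 3 gave 1.09 and 1.00 and edgeR adjusted p of 0.0767 and 0.0958. The call was lost in each of these 4 fits, which called 333, 237, 377 and 307 of 18471 genes, against 600 with all libraries.

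Kcnb2, which can partner Kcng1, had 750, 796 and 823 counts against 1031, 874 and 1044, a log2 fold change of 0.28 (SE 0.118, edgeR adjusted p = 0.269), and was not called. The knockout libraries of Kcnb2 all lay above the Lgmn+/+ libraries, at a level near 1 FPKM.

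Of the 9 tested modifier genes of the Kcnf, Kcng, Kcns and Kcnv families only Kcng1 was called. Kcnf1, also electrically silent on its own, came nearest, with 7165, 6680 and 7264 counts in Lgmn+/+-IR, against 8555, 10607 and 9729 in Lgmn-/--IR. All its knockout libraries were above all its Lgmn+/+ libraries, with a log2 fold change of 0.41 (SE 0.094, edgeR adjusted p = 0.0694, DESeq2 adjusted p = 0.00924). Kcnv1 had a log2 fold change of 0.19 (SE 0.129) at 15.3 ± 1.84 and 16.9 ± 1.08 FPKM. Kcns2 and Kcng3 were lower in each knockout library, with log2 fold changes of -0.43 (SE 0.146) and -0.72 (SE 0.308), and did not pass the test (edgeR adjusted p = 0.178 and 0.273). Kcng3 rested on 25 to 64 counts. The summed FPKM of the 9 modifier genes was 73.3 ± 4.08 and 90 ± 6.26, and without Kcng1 it was 66 ± 4.76 and 75.9 ± 7.18.

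**Figure D2:**
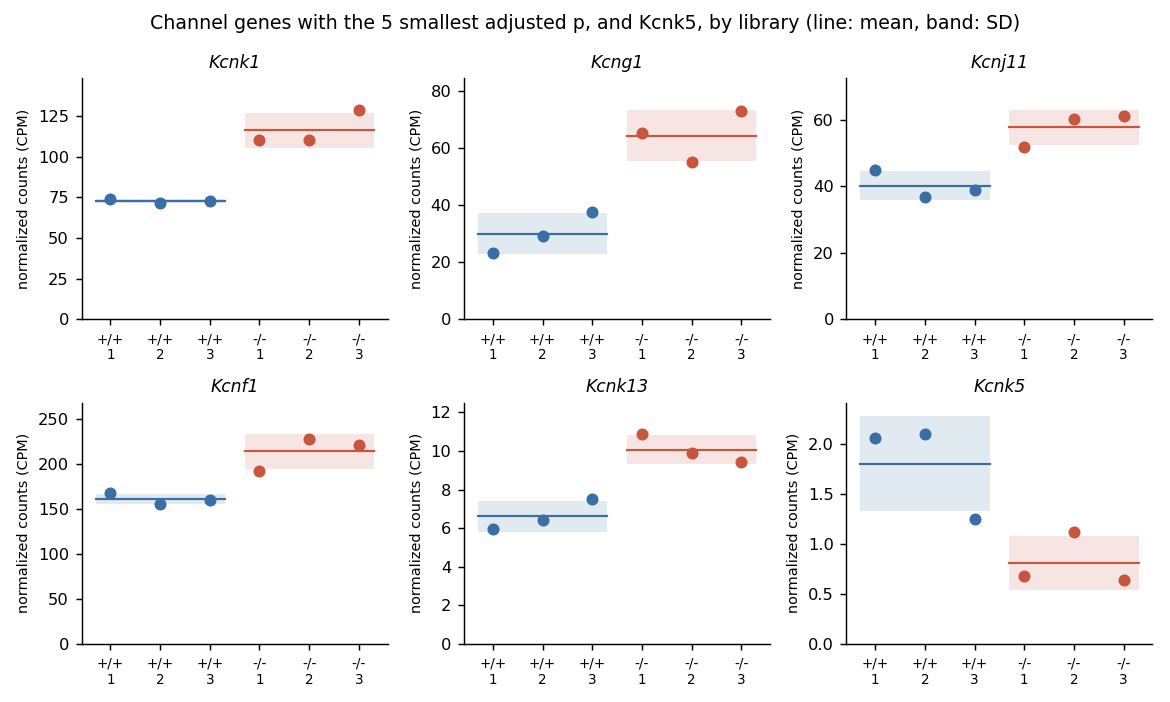
Normalized counts (CPM, y axis from 0) by library (x axis, replicates 1 to 3 of Lgmn+/+-IR in blue and of Lgmn-/--IR in red) for the 5 channel genes of smallest adjusted p and for Kcnk5. Points are libraries, lines are means and bands are SD. The genotypes do not overlap in any of the 6 panels, and Kcnk1 and Kcng1 passed the test.

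The other K2P genes did not pass. Kcnk13, which forms a channel known from microglia, had 253, 274 and 341 counts in Lgmn+/+-IR, against 483, 460 and 413 in Lgmn-/--IR, a log2 fold change of 0.61 (SE 0.14, edgeR adjusted p = 0.0697, DESeq2 adjusted p = 0.0052). The 6 microglia markers, none of them called, had a summed CPM of 179 to 204 in Lgmn+/+-IR and 150 to 165 in Lgmn-/--IR. Kcnk13 starts 2.43 Mb from the start of Lgmn on chromosome 12, and Kcnk10, a mechanosensitive and lipid-sensitive channel gene, starts 3.96 Mb from it. No other channel gene starts within 10 Mb of Lgmn. Kcnk10 had 8, 290 and 326 counts in Lgmn+/+-IR, against 283, 387 and 319 in Lgmn-/--IR. Replicate 1 of Lgmn+/+-IR alone stood apart, and the log2 fold change of 0.63 had an SE of 0.878. Kcnk2, a close relative of Kcnk10, had a log2 fold change of -0.17 (SE 0.24). Kcnk5, a pH-sensitive channel gene, ran the other way with 88, 90 and 57 counts in Lgmn+/+-IR, against 30, 52 and 28 in Lgmn-/--IR. Its log2 fold change of -1.15 (SE 0.33) was the lowest of the tested channel genes, with an edgeR adjusted p of 0.126, and it is a low gene at 0.478 ± 0.13 and 0.21 ± 0.079 FPKM. The acid-sensitive background channel genes Kcnk3 and Kcnk9 had 0.10 (SE 0.157) and -0.29 (SE 0.169). The median log2 fold change of the 10 tested K2P genes was 0.16, but 0.036 without Lgmn-/--IR replicate 3, 0.071 without Lgmn+/+-IR replicate 2 and 0.281 without Lgmn-/--IR replicate 1. Their summed FPKM was 78.2 ± 1.89 in Lgmn+/+-IR and 92.9 ± 2.65 in Lgmn-/--IR, and without Kcnk1 it was 47.6 ± 2.3 and 46.1 ± 1.94, so Kcnk1 made up the gap between the sums.

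Inward rectifiers (Kcnj) hold the resting potential near the potassium equilibrium. None of the 13 tested was called. Kcnj11, the pore subunit of the ATP-sensitive potassium channel, had 1923, 1571 and 1764 counts in Lgmn+/+-IR, against 2300, 2799 and 2690 in Lgmn-/--IR. The knockout libraries were all higher, by a log2 fold change of 0.52 (SE 0.118, edgeR adjusted p = 0.0665). In limma on log2(FPKM + 1) the adjusted p of Kcnj11 was 0.0212, and in DESeq2 it was 0.00538. The ratio of counts to FPKM for Kcnj11 was 3295 in Lgmn+/+-IR replicate 1 and 2200 to 2514 in the other libraries. Counts and FPKM thus ranked the Lgmn+/+ libraries of this gene differently. Abcc8, which encodes its sulfonylurea receptor and is its neighbour on chromosome 7 (46104523 to 46180033, beside 46093953 to 46100764 for Kcnj11), had 1926, 1367 and 1440 counts against 1140, 1308 and 1288. Abcc8 thus lay lower in each knockout library, with a log2 fold change of -0.39 (SE 0.157, edgeR adjusted p = 0.252), opposite in sign to Kcnj11. The other pore and receptor of this channel type had log2 fold changes of 0.067 (Kcnj8, SE 0.165) and 0.46 (Abcc9, SE 0.196).

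Kcnj12 and Kcnj16 were higher in each knockout library without passing the edgeR test, while DESeq2 called Kcnj12 higher (adjusted p = 0.0438). The counts of Kcnj12, a strong inward rectifier, were 580, 549 and 596 against 750, 744 and 851 (log2 fold change 0.40, SE 0.113, edgeR adjusted p = 0.118). Those of Kcnj16 were 902, 994 and 960 against 1202, 1122 and 1270 (0.29, SE 0.106, edgeR adjusted p = 0.208). Kcnj10, the glial partner of Kcnj16, had 54.2 ± 3.07 and 51.7 ± 3.46 FPKM and a log2 fold change of -0.023 (SE 0.105). Its counts of 13691 to 16077 in Lgmn-/--IR enclosed all 3 of Lgmn+/+-IR. Of the 7 astrocyte markers Aqp4 alone was called, higher at a log2 fold change of 0.55 (SE 0.104, edgeR adjusted p = 0.0377). The summed CPM of the 7 markers overlapped, at 3161 to 3461 in Lgmn+/+-IR and 3127 to 3596 in Lgmn-/--IR. Kcnj4 was the most abundant inward rectifier gene (82.7 ± 8.56 and 71.5 ± 14.2 FPKM) and had a log2 fold change of -0.18 (SE 0.144). The G protein-gated subunits Kcnj3, Kcnj6 and Kcnj9 had log2 fold changes of -0.23 (SE 0.166), 0.053 (SE 0.132) and 0.41 (SE 0.198).

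None of the 28 tested Kv alpha genes of the Kcna, Kcnb, Kcnc, Kcnd, Kcnq and Kcnh families was called. Kcna genes encode low-threshold axonal channels. Kcna2, the most abundant of them, had 10947, 10649 and 11563 counts in Lgmn+/+-IR, against 9267, 10272 and 10500 in Lgmn-/--IR. The groups just failed to meet, with a log2 fold change of -0.18 (SE 0.084, edgeR adjusted p = 0.299). Kcna1, its frequent partner, had a log2 fold change of -0.30 (SE 0.212).

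Kcnc genes encode the fast delayed rectifiers of rapidly firing neurons. Kcnc4 had 3378, 3233 and 2935 counts in Lgmn+/+-IR, against 3592, 5352 and 5746 in Lgmn-/--IR. Replicate 1 of Lgmn-/--IR lay close to the Lgmn+/+ libraries, and the log2 fold change was 0.58 (SE 0.182, edgeR adjusted p = 0.158). Without that replicate Kcnc4 was called higher (0.75, edgeR adjusted p = 0.0464). Kcnc1 had a log2 fold change of 0.035 (SE 0.112).

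Kcnd genes encode the dendritic A-type current. Kcnd1 had 719, 609 and 728 counts against 566, 615 and 502 and did not overlap after scaling (log2 fold change -0.33, SE 0.119, edgeR adjusted p = 0.202). The far more abundant Kcnd2 (17.8 ± 3.18 and 16.1 ± 3.19 FPKM) had -0.10 (SE 0.18). Among the Kcnq genes, which carry slow currents that restrain repetitive firing, Kcnq3 had 0.038 (SE 0.122) and Kcnq5 -0.087 (SE 0.148), with overlapping groups. All 8 Kcnh genes had log2 fold changes between -0.15 and 0.17, with Kcnh3 the most abundant (61.1 ± 7.11 and 59.1 ± 5.05 FPKM) and Kcnh1 at -0.15 (SE 0.112).

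None of the 9 tested Kv auxiliary genes (Kcnab, Kcne and Kcnip) was called. Their median log2 fold change of 0.02 turned to -0.067 and -0.069 on the FPKM scales and to -0.068 without Lgmn-/--IR replicate 3. Kcnab2, a cytoplasmic beta subunit of the Kcna channels, was among the most abundant channel genes at 198 ± 11.6 and 181 ± 18.9 FPKM, with a log2 fold change of -0.094 (SE 0.101). Kcnab3, another beta subunit gene, had 4994, 3695 and 4336 counts against 5474, 5293 and 6344 (0.35, SE 0.143, edgeR adjusted p = 0.25), and its groups overlapped after scaling. The Kcnip genes, whose calcium-binding products accompany Kcnd channels, had log2 fold changes of 0.20 (Kcnip1, SE 0.125), 0.02 (Kcnip2, SE 0.172), 0.02 (Kcnip3, SE 0.102) and 0.13 (Kcnip4, SE 0.169). Kcne4 had the lowest value of this group, -0.82 (SE 0.322, edgeR adjusted p = 0.236), on 30 to 89 counts.

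Calcium- and sodium-activated potassium channels contribute to the afterhyperpolarization. None of the 11 tested genes named Kcnm, Kcnn, Kcnt or Kcnu was called, and not all of them encode calcium- or sodium-activated pores. Kcnn2, a small-conductance channel gene, had 1338, 1514 and 1237 counts against 1452, 2456 and 2071 (log2 fold change 0.50, SE 0.191, edgeR adjusted p = 0.228). The groups overlapped through Lgmn-/--IR replicate 1. Kcnma1, which encodes the large-conductance pore, had -0.21 (SE 0.158), its neuronal beta subunit gene Kcnmb4 0.14 (SE 0.171), and the sodium-activated Kcnt1 -0.30 (SE 0.16).

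Sodium channel genes did not pass the test either, in 8 tested alpha and 4 beta genes. Scn2b had 13545, 13592 and 15535 counts against 12715, 12226 and 12754, lower in each knockout library by a log2 fold change of -0.22 (SE 0.082, edgeR adjusted p = 0.225). It encodes a beta subunit with an immunoglobulin-like domain, which binds the alpha subunits.

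Of the alpha genes, Scn1a, the channel of fast-spiking interneurons, had 4058, 4509 and 4045 counts against 4491, 4945 and 5009 (0.15, SE 0.098). Scn8a, the channel of the axon initial segment and nodes, had 10193, 12304 and 14045 against 6979, 13401 and 15624. The lowest and the highest library of Scn8a were both from Lgmn-/--IR, and the log2 fold change was -0.059 (SE 0.276). Scn2a had 4203, 9984 and 12763 counts against 10474, 4555 and 5818, with large differences inside each genotype and a log2 fold change of -0.39 (SE 0.437).

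**Figure D3:**
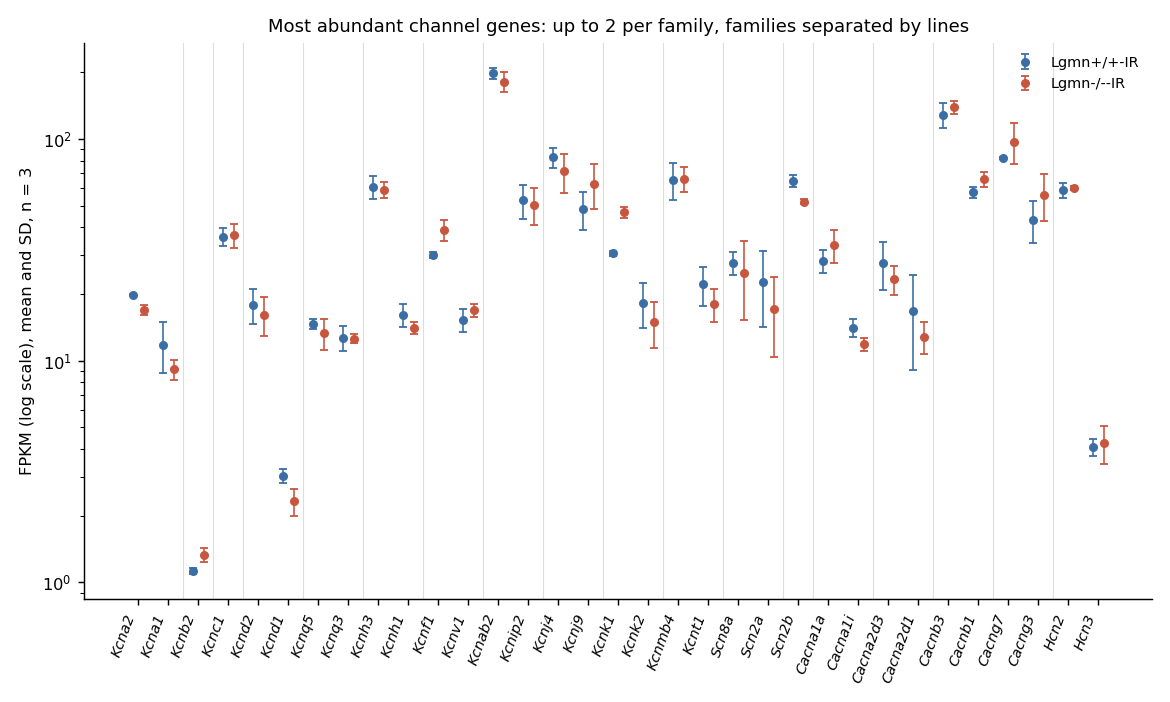
FPKM (y axis, log scale) of up to 2 of the most abundant tested genes of each channel family (x axis), as mean and SD of 3 libraries in Lgmn+/+-IR (blue) and Lgmn-/--IR (red). Kcnab2 and Cacnb3 lie highest, and the genotypes lie close together for nearly all genes, with Kcnk1 the only gene called among those drawn.

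The genes of voltage-gated calcium channels comprised 9 tested alpha1, 4 alpha2delta, 4 beta and 8 gamma genes, with none called. Cacna1a, the P/Q-type pore of presynaptic terminals, had 7749, 5740 and 6437 counts in Lgmn+/+-IR, against 7057, 6676 and 8783 in Lgmn-/--IR (log2 fold change 0.14, SE 0.164). Cacna1i, a T-type pore gene, had 5555, 4746 and 6057 against 4820, 4986 and 4497 and was lower in each knockout library after scaling (-0.23, SE 0.097, edgeR adjusted p = 0.262). The N-type pore gene Cacna1b had -0.15 (SE 0.122), the L-type genes Cacna1c and Cacna1d had -0.02 (SE 0.16) and 0.038 (SE 0.102), and the other T-type genes Cacna1g and Cacna1h had 0.056 (SE 0.272) and -0.067 (SE 0.249). Cacnb3 and Cacnb1, cytoplasmic subunits that bring the pore to the membrane, had log2 fold changes of 0.16 (SE 0.118) and 0.26 (SE 0.114). Cacnb1 was higher in each knockout library, with 9464, 8472 and 9805 counts against 10697, 10584 and 12809 (edgeR adjusted p = 0.282).

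All 4 alpha2delta genes, which encode extracellular subunits, had a log2 fold change below 0, and their median of -0.56 was the farthest from 0 of the 18 families. None was called. Cacna2d4 had 269, 159 and 171 counts in Lgmn+/+-IR, against 125, 134 and 111 in Lgmn-/--IR (-0.74, SE 0.243, edgeR adjusted p = 0.168). Cacna2d1 had 2674, 2700 and 8694 against 2729, 2528 and 3287. A single library, Lgmn+/+-IR replicate 3, held the highest value of Cacna2d1 and also of Cacna2d2 and Cacna2d3. Without that replicate the family median was -0.084, and the log2 fold change of Cacna2d1 went from -0.73 (SE 0.435) to 0.017. In limma on log2(FPKM + 1) and log2(FPKM + 0.1) the median was -0.32 and -0.367, and Cacna2d1 had -0.279 and -0.292. The median was -0.235 with the striatal marker level as covariate and -0.203 without both libraries of highest striatal marker level.

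Gamma subunit genes include Cacng2, Cacng3 and Cacng8, whose proteins are also AMPA receptor auxiliary subunits. Cacng2 had 3832, 3322 and 3464 counts against 3987, 4239 and 5606 (log2 fold change 0.34, SE 0.157, edgeR adjusted p = 0.3), and Cacng3 had 6948, 5540 and 4802 against 6618, 6839 and 10459 (0.43, SE 0.232). In each of these genes, Lgmn-/--IR replicate 3 was the highest library. Cacng7, the most abundant gamma gene, had 0.29 (SE 0.177), and Cacng8 -0.019 (SE 0.091).

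None of the 4 HCN genes was called. Hcn2 was the most abundant, at 58.8 ± 4.83 and 60 ± 1.37 FPKM, with 0.074 (SE 0.097). Hcn3 and Hcn4 had 0.16 (SE 0.158) and 0.042 (SE 0.313), the latter turning to -0.004 and -0.002 on the FPKM scales. Hcn4 ran from -0.288 without Lgmn-/--IR replicate 1 to 0.321 with the striatal marker level as covariate. Without both libraries of highest striatal marker level Hcn3 had -0.031.

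Proteins that anchor, traffic or accompany these channels were listed separately. Of 54 tested genes of this list, 1 was called, Adam23 (1.85%, against 3.25% of all genes tested), and the median log2 fold change was 0.011. Adam23 encodes a neuronal receptor of the secreted protein LGI1, which has been tied to the Kcna channel complex. It had 6292, 6161 and 7751 counts in Lgmn+/+-IR, against 3773, 2620 and 2761 in Lgmn-/--IR, lower in each knockout library by a log2 fold change of -1.18 (SE 0.164, edgeR adjusted p = 0.0127). The call was lost without Lgmn+/+-IR replicate 3 (-1.10, edgeR adjusted p = 0.0509) and without Lgmn-/--IR replicate 3 (-1.12, edgeR adjusted p = 0.057).

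Some channel genes differed more between libraries of 1 genotype than between the genotypes. Among 105 channel genes with a mean of 2 CPM or more, 17 (16.2%) had a ratio over 2 between the highest and lowest library of the same genotype, against 9.6% of 13707 genes at that level. Scn4b, the gene of a beta subunit abundant in striatal projection neurons, had 6313, 11638 and 22545 counts in Lgmn+/+-IR, against 15616, 4731 and 4483 in Lgmn-/--IR. Kcna5 had 169, 589 and 916 against 643, 218 and 135. Kcnab1 had 3523, 5595 and 8592 against 5882, 3332 and 3353, and Cacng5 315, 575 and 959 against 1514, 493 and 468. In all of these and in Scn2a, Lgmn+/+-IR replicate 3 and Lgmn-/--IR replicate 1 were the highest library of their genotype. These genes were chosen after their values were seen, so their shared order is not a test. Others of the 17 differed, with Cacnb4 highest in Lgmn+/+-IR replicate 2 and Scn8a lowest in Lgmn-/--IR replicate 1.

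The 7 striatal markers (Drd1, Drd2, Adora2a, Ppp1r1b, Rgs9 and Pde10a among them) had the same highest libraries. Their summed CPM was 442, 957 and 1881 in Lgmn+/+-IR, against 1561, 334 and 364 in Lgmn-/--IR. Kcng1 followed this order within Lgmn+/+-IR (23.3, 29.2 and 37.7 CPM) and not within Lgmn-/--IR (65.3, 55 and 72.8 CPM), and Kcnk1 followed it in neither genotype. With the striatal level as a covariate both stayed called (log2 fold change 0.65 and 1.23, edgeR adjusted p = 0.0284 and 0.0235), joined by Kcnk13 and Cacng5. Without both of the highest libraries, which left 2 libraries in each group, no channel gene was called, against 0.753% of all genes tested. Kcnk1 and Kcng1 then had log2 fold changes of 0.72 and 1.28 (edgeR adjusted p = 0.123 and 0.0777).

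**Figure D4:**
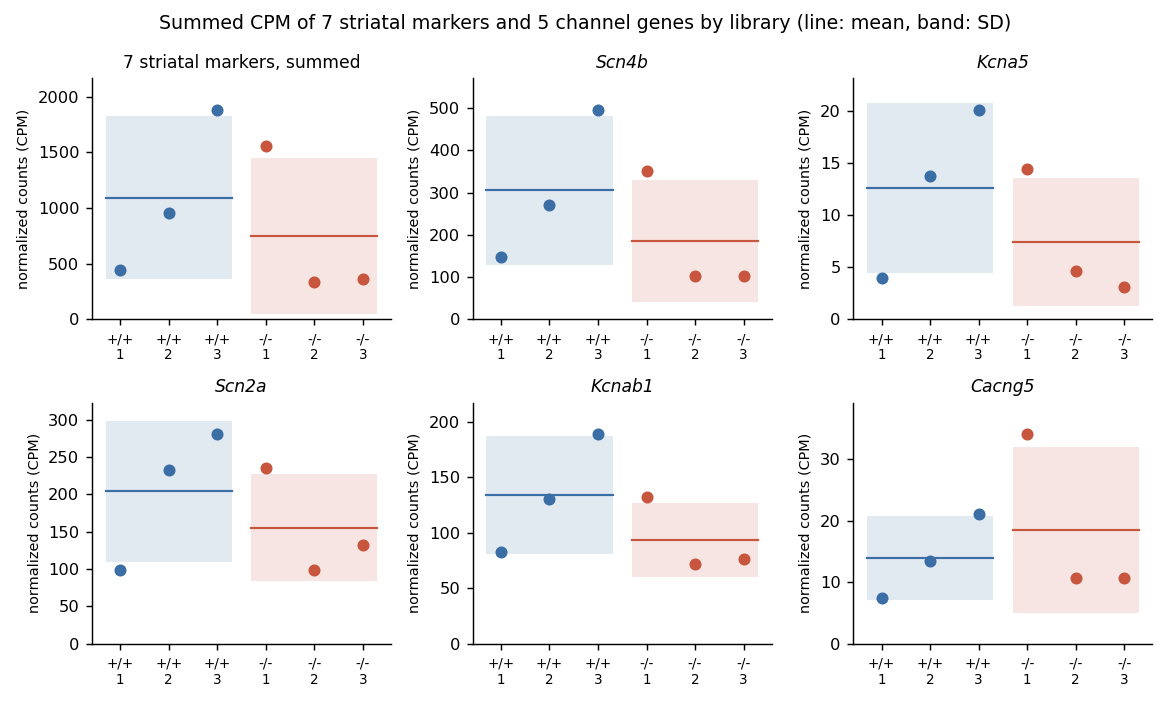
Summed CPM of 7 striatal markers and CPM of 5 channel genes (y axes from 0) by library (x axis, Lgmn+/+-IR in blue, Lgmn-/--IR in red), with means as lines and SD as bands. Replicate 3 of Lgmn+/+-IR and replicate 1 of Lgmn-/--IR are the highest library of their genotype in each of the 6 panels, and the genotypes overlap in each. The channel genes were chosen after their values were seen.

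In 5 channel genes, 1 or 2 libraries stood apart from the rest of their genotype. Besides Kcnk10, Cacna2d1 and Scn8a, whose counts are given with their families, these were Cacna1e and Cacnb4. Cacna1e, the R-type calcium channel pore gene, had 2068 counts in Lgmn+/+-IR replicate 1 and 8762 to 10371 in the other 5 libraries. Cacnb4 had 1998, 7513 and 2887 counts in the Lgmn+/+ libraries and 6650, 6649 and 6563 in the knockout libraries. With all libraries its log2 fold change was 0.63 (SE 0.449). Without Lgmn+/+-IR replicate 2, the only Lgmn+/+ library at the knockout level, it was 1.42 and Cacnb4 was called (edgeR adjusted p = 0.0163). That omission took out the only overlap between the groups, and Cacnb4 was called under no other alternative.

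**Figure D5:**
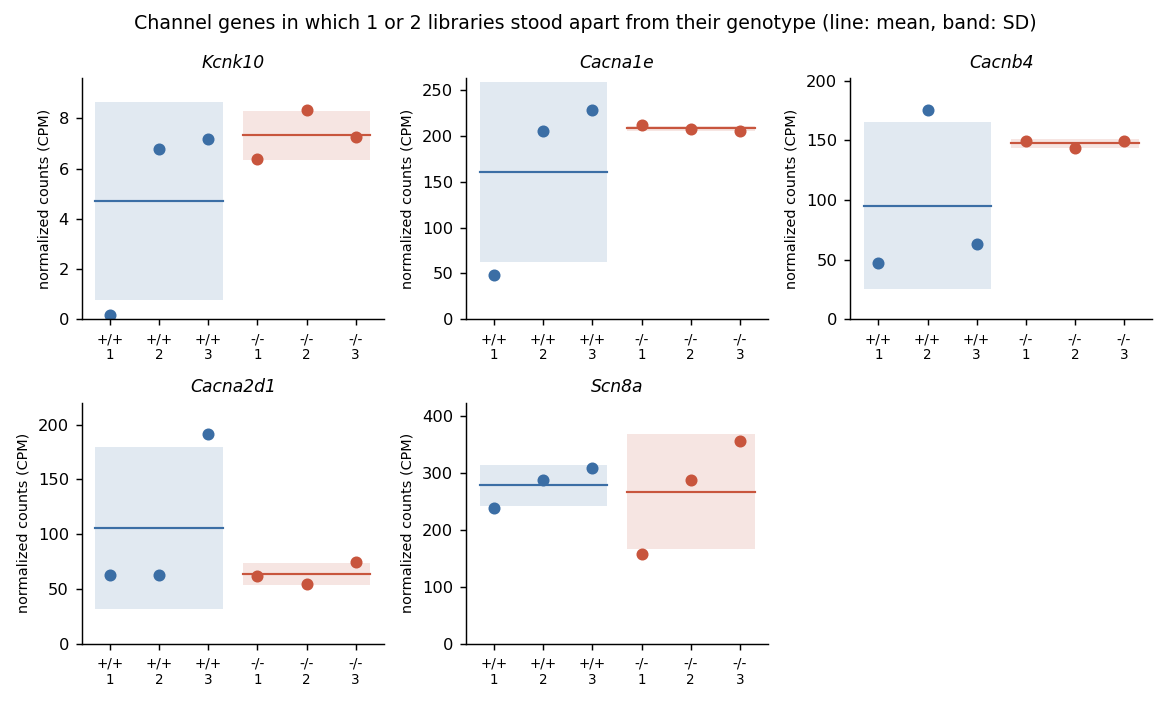
Normalized counts (CPM, y axes from 0) by library (x axis, Lgmn+/+-IR in blue, Lgmn-/--IR in red) for 5 channel genes, with means as lines and SD as bands. Replicate 1 of Lgmn+/+-IR is the low point of Kcnk10, Cacna1e and Cacnb4, replicate 3 of Lgmn+/+-IR is the high point of Cacna2d1, and replicate 1 of Lgmn-/--IR is the low point of Scn8a.

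The 15 channel genes left out for low counts held at most 52 counts in a library. Kcnk16 and Kcnk18 had 0 counts in all 6 libraries, which allows up to 3 counts in each. The others were Cacna1f, Kcna7, Kcna10, Kcne1, Kcne3, Kcnj1, Kcnj15, Kcnk7, Kcnk15, Kcnmb3, Kcnv2, Scn4a and Scn11a, among them the photoreceptor gene Cacna1f, the skeletal muscle gene Scn4a and the sensory neuron gene Scn11a. Kcnk15 had 52 counts in Lgmn-/--IR replicate 1 and 0 to 15 in the other libraries.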

How the data were processed

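The data are bulk polyA RNA-seq of mouse cortex, with 3 libraries from each genotype, grouped by the sample labels. Per the submitters' processing notes the authors trimmed reads with Trimmomatic 0.36 and used GRCm38, and their methods name HISAT2 for mapping and StringTie for expression. The authors deposited raw counts per gene for each library, without normalization, and FPKM for the same genes. The read counter, the annotation release and the strand setting are not given in the sources used here. Gene positions and exon overlaps came from GENCODE M21.

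Genes with 10 or more counts in at least 3 of 6 libraries were tested with edgeR 4.0.16 in R 4.3.3 (TMM, quasi-likelihood F-test, genotype only, Benjamini-Hochberg over 18471 genes). SE is the absolute log2 fold change over the square root of F, and fold changes are Lgmn-/--IR over Lgmn+/+-IR. FPKM served for levels. Alternatives used DESeq2 1.42.0, limma 3.58.1 (voom, or log2(FPKM + 1) and log2(FPKM + 0.1)), other scaling and filters, a block on replicate number, a striatal covariate and the omission of libraries. The tests were also run on simulated counts with the same biological spread for all genes. That simulation held no tissue differences between libraries, so it cannot show how the tests behave on these data. Members, families, partner genes and markers were chosen with earlier results of these data known. The genes named are those called, the 2 most abundant and the 1 of smallest p in each of 18 families, those within 10 Mb of Lgmn, Lgmn, and called partner genes. Others were chosen after their values were seen. Values of a few genes that this rule names are not reported here. The methods name 3 cortical samples per genotype and do not state whether each came from a separate mouse. Sequencing reads carry no molecular identifiers, so floors cover counting error only. Non-irradiated mice, RT-qPCR and metabolomics were not analysed here.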

Additional observations from a re-analysis of the deposited data

How the results depend on the processing

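The median log2 fold change of the channel genes was 0.038 and lay between -0.008 and 0.086 under the 18 alternatives. The 2 calls of higher channel genes (edgeR) became 6 with DESeq2, 4 with the striatal covariate, 1 with no filter on low counts, and 0 both with a replicate block and without both libraries of highest striatal marker level. Limma on either FPKM scale called 3 (Kcng1, Kcnj11 and Kcnk1). Leaving out single libraries gave 1 to 2 (0.826% to 1.65% of channel genes, against 1.28% to 2.9% of all genes tested). The count of lower channel genes, 0 in edgeR, was 1 with DESeq2 (Kcnk5). In both directions DESeq2 called 5.79% of channel genes, against 7.71% of all genes tested, limma on FPKM 2.48%, against 3.1% to 3.11%, and the covariate 3.31%, against 3.0%. With no filter the shares were 0.746% and 1.3%. The block and the omission of both libraries called 0.785% and 0.753% of all genes tested. The count past both thresholds, 1, became 2 with DESeq2, 0 with limma on either FPKM scale, with no filter, with the replicate block and without both libraries, and 0 to 1 without single libraries. The 1 called partner gene became 2 with DESeq2 or the covariate, 0 with the block, and 0 to 1 without single libraries. The cause was not tested. The covariate and the omission of both libraries were chosen after seeing the data.

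Same-numbered libraries come from different genotypes and so from different mice. Their deviations from the genotype means correlated at -0.247, -0.044 and -0.03. Differently numbered pairs had correlations of -0.178 to 0.205. With 3 libraries per genotype these deviations balance around 0, so the correlations are not independent of each other. Whether the numbers mark a shared batch was not tested. With the replicate block 145 of 18471 genes were called, against 600. Kcnk1 was called under 14 of 18 alternatives (log2 fold change 0.60 to 0.72) and Kcng1 under 11 of 18 (0.88 to 1.29). Of 48 named genes, 35 kept their sign throughout, and the 13 others were not called. The median SE of the channel genes was 0.177 on the log2 scale.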

Other observations

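Counts and FPKM did not move together in a few channel genes. The ratio of counts to FPKM differed by over 1.5 times between libraries in 5 of 101 channel genes with 100 or more counts in every library (4.95%, against 3.69% of 12626 genes). These were Kcnu1, Cacna1e, Scn3b, Cacna2d1 and Cacna2d4, chosen after their values were seen. For Cacna1e the ratio was 10432 in Lgmn+/+-IR replicate 1, the library with few counts of this gene, and 16680 to 16841 in the others.

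The tested channel genes spanned more of the genome than others, with a median of 54.5 kb from gene start to end, against 19.6 kb for the 18421 tested genes found in the annotation.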
